A study of Mus musculus with 9 samples.

Results

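Eryth1 is a cluster of red-cell-lineage cells in the mouse thyroid, and its members are the 997 cells that carry this label in the authors' deposited annotation, out of 10186 cells with 16 labels. A second cluster, Eryth2, holds 1092 cells. Both contain cells filled with globin RNA, and they are set side by side below. The cells came from thyroids of male C57BL/6 mice aged 10 to 12 weeks by the design text and 10 to 14 weeks by the treatment protocol, and single cells were sequenced in droplets from the 3' ends of their RNA. Every group received 1 intraperitoneal injection of antibody, is labelled 7 days, and has 3 samples, each of them a pool of 6 mice. The control group RW received an antibody against ragweed (40 mg/kg), a plant allergen. The group aJ1aJ2 received antibodies that block the Notch ligands Jag1 and Jag2 (20 mg/kg each). The group aN1aN2 received antibodies that block the receptors Notch1 (5 mg/kg) and Notch2 (10 mg/kg). No source used here says how the labels were made, how the cells were called, or whether the tissue was perfused to remove blood.

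Red cells carry oxygen on haemoglobin, a tetramer of alpha- and beta-globin chains that each hold a heme. In mammals the erythroblast makes heme and globin, expels its nucleus and becomes a reticulocyte, which still holds RNA, ribosomes and mitochondria and loses them as it becomes a mature red cell. C57BL/6 mice carry a pair of adult beta-globin genes, Hbb-bs and Hbb-bt, and a pair of nearly identical alpha-globin genes, Hba-a1 and Hba-a2. Blood in the vessels of a digested organ can bring such cells into a single-cell suspension.

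The proximal promoters of the adult globin genes and of Alas2 are shown because these genes mark Eryth1 and because, among the adult globins, Hbb-bt set it furthest apart from Eryth2. Each sequence is the 120 bases before the RefSeq transcription start in GRCm38.p6, read 5′ to 3′ on the gene's own strand. Capitals mark matches on either strand to 6 motifs. The first is CCACACCC, the box known to bind the erythroid factor Klf1, and the next is its shorter core CACCC. The CCAAT box and the box with the letters TATAA are common elements of strong promoters and were searched as well. AGATAA is a form of the motif that binds GATA factors such as Gata1, and a further form of that motif, searched in the same way, is TGATAA. The match to CACCC can lie within CCACACCC, and matches can overlap each other. The Hbb-bs window lies at chr7:103827929-103828048 on the minus strand, the Hbb-bt window at chr7:103813924-103814043 on the minus strand, the Hba-a1 window at chr11:32283552-32283671 on the plus strand, and the Alas2 window at chrX:150547297-150547416 on the plus strand.
Hbb-bs: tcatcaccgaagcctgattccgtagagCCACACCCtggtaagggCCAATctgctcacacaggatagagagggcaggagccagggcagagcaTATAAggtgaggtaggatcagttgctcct
Hbb-bt: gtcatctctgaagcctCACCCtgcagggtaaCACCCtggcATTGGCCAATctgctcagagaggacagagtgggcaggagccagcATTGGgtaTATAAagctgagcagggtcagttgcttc
Hba-a1: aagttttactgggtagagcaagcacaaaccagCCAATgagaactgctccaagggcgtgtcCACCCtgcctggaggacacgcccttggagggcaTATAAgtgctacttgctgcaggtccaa
Alas2: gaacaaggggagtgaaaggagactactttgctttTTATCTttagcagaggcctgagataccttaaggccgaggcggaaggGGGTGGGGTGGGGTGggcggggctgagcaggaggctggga

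The Hbb-bs window held 1 CCACACCC, and the Hbb-bt window held none but had 2 CACCC matches. CCACACCC was found in 1.84% of 32851 RefSeq promoter windows of the same length, CACCC in 31.7%, CCAAT in 21.3%, TATAA in 11.8%, AGATAA in 4.36% and TGATAA in 3.55%. The Alas2 window held 1 AGATAA and 3 CACCC matches, all on the strand opposite to the gene. The Hba-a2 window is not printed, since all 117 bases that aligned to Hba-a1 were identical. A match describes the letters of the window and was not tested for binding.

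The 9 samples held between 583 and 1805 cells each, and no cell had under 500 UMIs (unique molecular identifiers, which count captured molecules), so emptier red cells were not analysed here. Eryth1 made up 9.79% of the cells and, with 2235469 of 63121420 UMIs, 3.54% of the UMIs. Sample titles fall into 3 ranges of internal numbers, called series A (RW 3, aJ1aJ2 1), B (RW 1, RW 2, aJ1aJ2 3, aJ1aJ2 4) and C (all aN1aN2 samples) here. The titles of RW 3 and aJ1aJ2 1 carry no replicate number, and theirs were assigned here. The receptor blockade and series C cannot be told apart. Among all cells, 15 barcodes occurred in 2 libraries, and 2 of those cells were Eryth1, never in both libraries. No doublet caller was run here. Whether doublets were removed before deposit is not given in the sources used here.

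The marker genes bore out the erythroid name. Every Eryth1 cell held UMIs of Hba-a1, Hba-a2 and Hbb-bs, and 58.5% held at least 1 UMI of Alas2, the enzyme that starts heme synthesis in red cells. Globins took 93.1% of all Eryth1 UMIs, against between 0.0240% and 0.841% in the 14 labels other than Eryth1 and Eryth2. Those other cells held a median of 1 to 3 globin UMIs, depending on the label, and how those UMIs came to them was not tested. A cell of Eryth1 held a median of 1551 globin UMIs.

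Eryth1 cells were shallow beside Eryth2 cells. Median UMIs per Eryth1 cell were 2066, 1794.5 and 2170 in RW 1, 2 and 3, 1822, 1909.5 and 1655 in aJ1aJ2 1, 3 and 4, and 1425, 1368 and 1322.5 in aN1aN2 1, 2 and 3. In the same samples the Eryth2 medians were 9031, 9276 and 11432, then 8894, 11182 and 9746, then 5822, 6158 and 6563. No sample's medians came near each other, and the Eryth2 median was between 4.09 and 5.89 times the Eryth1 median of the same sample. Over all samples the medians were 1682 and 7944.5 UMIs, and 29.8% of Eryth1 cells but 2.11% of Eryth2 cells held under 1000 UMIs. Whether less RNA per cell or poorer capture underlies the depth gap was not tested. Since the labels may have been drawn from these same counts, differences between Eryth1 and Eryth2 are given as values with no test throughout.

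Few genes were seen in an Eryth1 cell: a median of 50, against 90 in Eryth2 and 1360 in cells of the other 14 labels. When each cell was thinned to 500 UMIs, which left out no cell, the order turned: the median was 23 genes in Eryth1, 17 in Eryth2 and 385 in EC1, an endothelial label. At equal depth an Eryth1 cell thus spread its UMIs over more genes than an Eryth2 cell, with 94.2% and 97.0% of the thinned UMIs (medians over cells) taken by globins. Globin shares of the summed UMIs were lower in Eryth1 than in Eryth2 in 9 of 9 samples. They lay between 89.7% and 96.3% in Eryth1 and between 95.2% and 97.1% in Eryth2.

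Among the adult globins, Hbb-bs (beta-s) gave 505389 CPM (UMIs of the gene scaled to a fixed total per label) in Eryth1 and 524449 in Eryth2, that is 1133 and 4132 UMIs per cell. Hba-a1 gave 240631 and 205100 CPM, or 539.5 and 1616 UMIs per cell. Hba-a2 gave 165117 and 147070 CPM, or 370 and 1159 UMIs per cell. These 3 genes were 3.65, 2.99 and 3.13 times lower per cell in Eryth1, close to the 3.65-fold gap of all globins together. Hbb-bt stood apart from them. It gave 19512 CPM in Eryth1 and 89307 in Eryth2, or 43.8 and 704 UMIs per cell, a 16.1-fold gap. On the CPM scale the alpha-globin genes were higher in Eryth1 in 9 of 9 samples and Hbb-bt lower in 9 of 9. For comparison, of 306 genes with at least 100 UMIs over both labels, 30.1% were higher and 28.1% lower in CPM in Eryth1 in every sample, and 52.3% were lower in UMIs per cell in every sample.

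The split between the beta-globin genes was the widest difference among the globins. Hbb-bt made up 4.04%, 3.50% and 2.87% of Hbb-bs plus Hbb-bt UMIs in Eryth1 of RW 1, 2 and 3, 2.97%, 3.75% and 4.09% in aJ1aJ2 1, 3 and 4, and 4.34%, 3.89% and 3.01% in aN1aN2 1, 2 and 3. In Eryth2 the same samples gave 15.1%, 15.8% and 15.7%, then 14.4%, 15.6% and 16.3%, then 12.2%, 12.9% and 12.6%. All Eryth1 values lay below all Eryth2 values, and the 95% Wilson interval of each share, which covers counting error only, was at most 0.142 percentage points to either side. By single cells, 829 Eryth1 cells (83.1%) and 77 Eryth2 cells (7.05%) had under 5% Hbb-bt among their beta-globin UMIs. The median cell had 2.10% in Eryth1 and 13.9% in Eryth2.

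**Figure D1:**
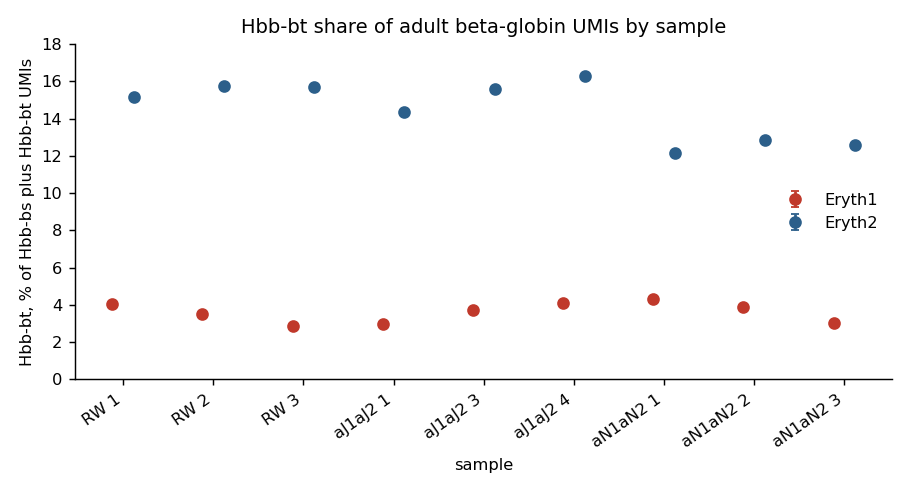
Hbb-bt as a percentage of Hbb-bs plus Hbb-bt UMIs (y axis) in each of the 9 samples (x axis), for Eryth1 (red) and Eryth2 (blue), with 95% Wilson intervals that are narrower than the points. Eryth1 lies between 2.87% and 4.34% and Eryth2 between 12.2% and 16.3%.

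The split was also present among cells of like depth. Among cells with 2000 to under 4000 UMIs, the median Hbb-bt share was 2.24% in 271 Eryth1 cells and 10.3% in 121 Eryth2 cells. With 4000 to under 6000 UMIs it was 3.32% in 107 Eryth1 cells and 9.61% in 161 Eryth2 cells. Summed over cells with 2000 to under 6000 UMIs, the share was lower in Eryth1 in 9 of 9 samples, although Eryth2 cells were deeper within this range in each sample (in aJ1aJ2 3, for example, medians of 3020.0 and 4882.5 UMIs). Thinning each cell to 500 UMIs gave shares of 2.98% and 13.3%. Thinning weights cells about equally but leaves the expected share within a cell unchanged, so these values do not bear on depth. Within Eryth1 the share was higher in the deeper cells, from 1.66% (297 cells with under 1000 UMIs) to 5.33% (37 cells with 6000 to under 8000 UMIs). The 8 Eryth1 cells with 8000 to under 12000 UMIs had a median of 12.1%, but also a median globin share of 76.5% and a mean of 31.5 Tg UMIs, against 97.0% and 2.81 in those 37 cells. A single cell held more UMIs than that.

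**Figure D2:**
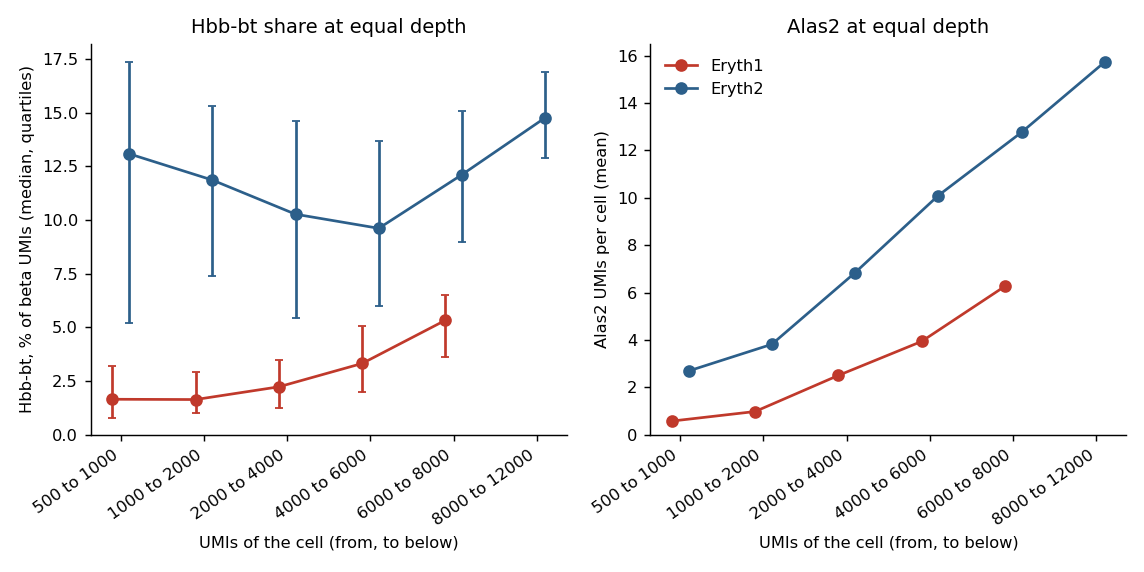
Left, median Hbb-bt percentage of beta-globin UMIs per cell with its quartiles, and right, mean Alas2 UMIs per cell, both against the total UMIs of the cell in bins (x axis), for Eryth1 (red) and Eryth2 (blue). Bins with under 20 cells are not drawn, and at every depth drawn for both labels the Eryth1 value lies below the Eryth2 value.

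Alpha-globin UMIs stood higher beside beta-globin UMIs in Eryth1. The ratio of Hba-a1 plus Hba-a2 to Hbb-bs plus Hbb-bt UMIs was 0.773 in Eryth1 and 0.574 in Eryth2, and Eryth1 was higher in 9 of 9 samples. Within the alpha-globin pair, Hba-a1 took 59.3% of the UMIs in Eryth1 and 58.2% in Eryth2. The annotated transcripts limit how well these copies can be told apart: those of Hba-a1 and Hba-a2 were identical at 537 of 538 aligned bases, and 58.9% of the 90-base windows of Hba-a1 also occurred in Hba-a2. For the beta pair, 92.7% of aligned bases were identical and 63.3% of the windows of Hbb-bs also occurred in Hbb-bt. How reads that fit both copies were counted is not given in the sources used here, so each share within a pair is uncertain as a level, while both labels were counted from the same libraries.

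The remaining globin genes were close to silent. Hbq1a, a theta-globin gene, had 73 UMIs in Eryth1 and its copy Hbq1b had 10. The embryonic genes Hba-x, Hbb-y, Hbb-bh1 and Hbb-bh2 had 0 UMIs in all 997 cells.

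Genes of heme synthesis and iron handling summed to 5.34 UMIs per cell in Eryth1 and 27.1 in Eryth2. All 5 of these genes with at least 100 UMIs over both labels were lower per cell in Eryth1 in every sample, with a median log2 difference of -2.66 against -1.58 over the 306 genes. Alas2 gave 1.86, 1.81 and 2.22 UMIs per cell in RW 1, 2 and 3, 1.43, 2.46 and 1.98 in aJ1aJ2 1, 3 and 4, and 1.95, 1.66 and 1.65 in aN1aN2 1, 2 and 3. The lowest Eryth2 sample had 11.7 and the highest 16.6, so the labels did not overlap. With all samples summed, Alas2 was at 844 CPM, against 1702 CPM in Eryth2. Fech, which inserts iron into the porphyrin ring, gave 0.183 and 1.97 UMIs per cell, and Slc25a37, the mitochondrial iron importer mitoferrin, gave 0.175 and 1.10. The ferritin chains Ftl1 (2.51 and 8.17) and Fth1 (0.539 and 2.39) were also lower per cell, yet on the CPM scale Ftl1 stood at 1121 and 1037. After thinning to 500 UMIs, Alas2 was seen in 30.4% of Eryth1 cells, 56.5% of Eryth2 cells and 0.250% of EC1 cells. The unthinned shares were 58.5%, 99.7% and 1.12%.

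The cytosolic enzymes of the red cell showed the widest gap of any erythroid list. The 11 measured genes summed to 0.490 UMIs per Eryth1 cell and 17.7 per Eryth2 cell, and 7 of the 7 with at least 100 UMIs were lower per cell in every sample, with a median log2 difference of -4.95. Bpgm, which makes the 2,3-bisphosphoglycerate that lowers the oxygen affinity of haemoglobin, gave 0.212 and 8.48 UMIs per cell. The highest Eryth1 sample had 0.295 and the lowest Eryth2 sample 5.44. Gpx1, a glutathione peroxidase, gave 0.0592 and 5.65, Prdx2, an abundant red-cell peroxiredoxin, 0.0963 and 1.41, and Blvrb, biliverdin reductase B, 0.0532 and 0.483. Car2, carbonic anhydrase, had 6 UMIs in Eryth1 and 874 in Eryth2, and Car1 had 0 in both. In thinned cells Gpx1 was found in 0.602% of Eryth1, 18.7% of Eryth2 and 11.6% of EC1 cells (unthinned 3.01%, 53.6% and 60.9%, with median depths of 1682, 7944.5 and 3994 UMIs), so in Eryth1 it lay below the share in endothelium. Bpgm was found in 3.01%, 34.3% and 1.31% of thinned cells of the same labels.

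Genes tied to the remodelling of reticulocytes summed to 4.17 UMIs per cell in Eryth1 and 33.6 in Eryth2. Of the 11 with at least 100 UMIs, 10 were lower per cell in Eryth1 in every sample, with a median log2 difference of -3.35. Polyubiquitin Ubb followed the globins (2.35 and 8.49 UMIs per cell). The ubiquitin-conjugating enzyme Ube2l6 (0.524 and 4.67) and the poly(A) polymerase Tent5c (0.307 and 2.29) were further apart. Bnip3l, the receptor that directs the clearance of mitochondria from reticulocytes, gave 0.213 and 2.54, and Mkrn1, an E3 ubiquitin ligase, 0.198 and 7.49. On the CPM scale, 7 of the 11 were lower in Eryth1 in every sample.

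Red cell membrane genes summed to 0.304 and 2.24 UMIs per cell, and 8 of 16 had no UMI in Eryth1. Epb41, protein 4.1, carried most of what remained (0.250 and 1.39 UMIs per cell), followed by Cd47, the signal that restrains phagocytosis, with 28 UMIs in Eryth1 and 37 in Eryth2. Slc4a1, the anion exchanger band 3, had 2 and 177, a per-cell ratio of 80.8 whose 95% counting interval ran from 22.0 to 672. The 10 erythroid transcription factors had 14 UMIs together in Eryth1, led by Lmo2, Zfpm1, Nfe2 and Sox6, and Gata1 and Klf1 were among the 5 at 0. Progenitor and cell cycle genes had 27 UMIs, led by Tspo2 and Hemgn. Mki67, Top2a, Cdk1 and Epor were at 0.

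**Figure D3:**
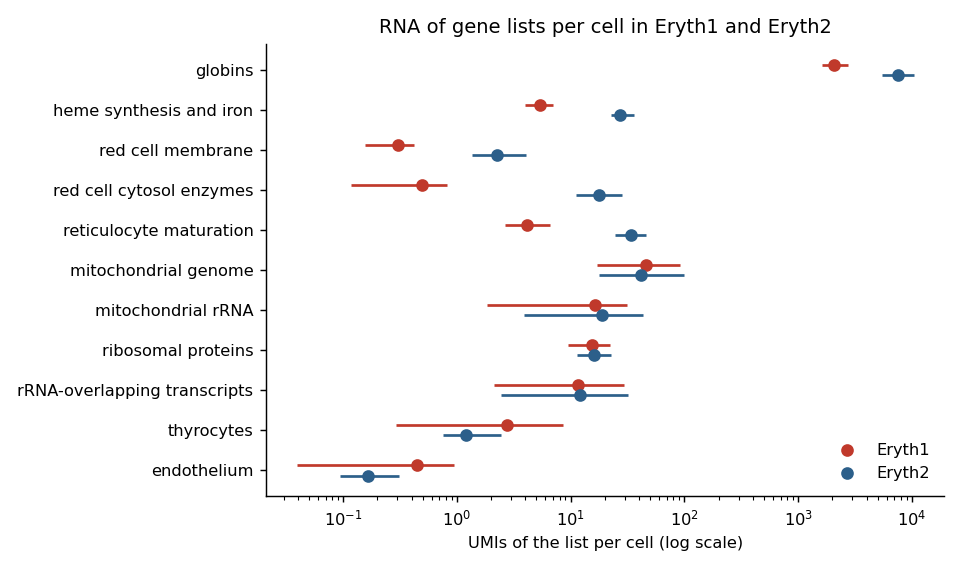
UMIs per cell (x axis, log scale) summed over each gene list (y axis) in Eryth1 (red) and Eryth2 (blue); points are all samples together and lines run from the lowest to the highest sample. The erythroid lists lie apart, with cytosol enzymes at 0.490 against 17.7, while mitochondrial and ribosomal RNA lie on top of each other.

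Mitochondrial and ribosomal RNA lay closer between the labels, per cell, than the erythroid genes did. The 13 protein-coding genes of the mitochondrial genome gave 45.7 UMIs per cell in Eryth1 and 41.2 in Eryth2, and Eryth1 was higher in 6 of 9 samples. On the CPM scale they were at 20369.8 and 5225, higher in Eryth1 in 9 of 9 samples, because the total of an Eryth1 cell is smaller. The leading member mt-Cytb, a subunit of respiratory complex III, gave 13.6 and 12.1 UMIs per cell, and the complex I subunits mt-Nd2, mt-Nd4 and mt-Nd1 gave 9.11, 7.81 and 6.25 in Eryth1. Further members among the 20 most abundant non-globin genes were mt-Atp6 (2.91), mt-Co1 (1.81), mt-Nd3 (1.67) and mt-Nd5 (1.12 UMIs per cell). Mitochondrial ribosomal RNA (mt-Rnr1 and mt-Rnr2) gave 16.4 and 18.9 UMIs per cell, and its sum was lower in Eryth1 in 9 of 9 samples, as was mt-Rnr2 by itself.

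RNA of cytosolic ribosomal proteins came to 15.4 UMIs per cell in Eryth1 and 16.0 in Eryth2. Rpl41 (2.18 and 2.80) and Rps29 (0.955 and 1.06) led this set of 89 symbols, of which 82 were seen in Eryth1. Of the 70 with at least 100 UMIs, 4 were lower per cell in Eryth1 in every sample. Transcripts that overlap nuclear ribosomal RNA sequence (Gm42418, AY036118 and Lars2) gave 11.5 and 12.1 UMIs per cell. Also among the 20 were Tpt1, a translationally controlled protein (3.01 and 4.24 UMIs per cell), and Oaz1, ornithine decarboxylase antizyme (0.776 and 4.80). The 20 genes held 56.7% of the non-globin UMIs of Eryth1.

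Of the 306 genes, none was higher per cell in Eryth1 in all 9 samples, 160 were lower, and 96 (31.4%) were higher with all samples summed. Among the 10 genes with the lowest CPM ratio of Eryth1 to Eryth2 and the same direction in every sample were Dhrs11, Car2, Gpx1, Slc4a1, Nt5c3, Fam213a, Gadd45a, Bpgm and Gclm. Dhrs11 had 1 and 173 UMIs, a per-cell ratio of 158 with a counting interval from 28.0 to 6274. Nt5c3, a pyrimidine nucleotidase of maturing red cells, had 2 and 165, with an interval from 20.5 to 627. Fam213a had 9 and 721 UMIs, Gclm, of glutathione synthesis, 12 and 502, and the stress gene Gadd45a 4 and 228.

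At the other end, among genes higher in CPM in Eryth1 in all 9 samples, the 10 with the highest ratio were Malat1, Tmsb4x, Crip1, Calca, Tg, Rgcc, Mt1, Neat1, Rps15 and Ptma, none of them specific to red cells. Malat1, a nuclear RNA of nucleated cells, was 14.2 times higher in CPM in Eryth1, with 0.649 and 0.160 UMIs per cell. Thymosin beta 4 (Tmsb4x) gave 0.392 and 0.151, metallothionein Mt1 0.346 and 0.152, and the cysteine-rich protein gene Crip1 0.0933 and 0.0375. Rgcc (0.0732 and 0.0321), Ptma (0.120 and 0.0632) and Rps15 (0.0893 and 0.0467) were also scarce. CPM ratios for these genes were between 6.69 and 14.2.

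Malat1 RNA sat mostly in a small set of Eryth1 cells. Cells with under 80% globin UMIs numbered 93 in Eryth1 and 1 in Eryth2, and cells with at least 200 genes numbered 24 and 47. Together 104 Eryth1 cells (10.4%) met one or both limits, which were set after the values were seen. By sample these were 21, 10 and 3 cells in RW 1, 2 and 3, 4, 15 and 34 in aJ1aJ2 1, 3 and 4, and 11, 5 and 1 in aN1aN2 1, 2 and 3. Low-globin cells had a median of 714 UMIs and 76 genes, and the 24 many-gene cells a median of 5759 UMIs. The latter held 79.3% of the Malat1 UMIs of Eryth1. The other 893 cells had 0.124 Malat1 UMIs per cell. The Eryth2 value of 0.160 keeps its own many-gene cells, so these are not like for like. Both limits pick cells rich in non-globin RNA, so a high share of such RNA in the 104 cells is partly built in. The C cell and parathyroid list, to which Calca belongs, had 29.8% of its UMIs in them.

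Thyrocyte RNA was the main RNA of another cell type. Tg, thyroglobulin, the precursor of thyroid hormone, had 2598 UMIs in Eryth1, or 2.61 per cell, and 1242 in Eryth2, or 1.14 per cell. By sample it gave 3.20, 1.07 and 1.57 UMIs per Eryth1 cell in RW 1, 2 and 3, 0.235, 8.15 and 3.25 in aJ1aJ2 1, 3 and 4, and 1.32, 2.50 and 1.11 in aN1aN2 1, 2 and 3. The high value of aJ1aJ2 3 rested on 1 cell of 18911 UMIs and 3058 genes, 58.8% of them globin UMIs, which held 686 Tg UMIs, 26.4% of all Tg in Eryth1. The 12 thyrocyte genes together were at 1217 CPM in Eryth1 and 152 CPM in Eryth2, with Duox2 and Slc26a4 at 0 and Iyd at 27 UMIs. Low-globin and many-gene cells held 62.3% of these UMIs, and the remaining cells had 1.15 per cell, against 1.20 in all of Eryth2, from which no cells were removed. In cells thinned to 500 UMIs, Tg was found in 28.0% of Eryth1, 8.61% of Eryth2 and 27.4% of EC1 cells (unthinned 56.2%, 55.7% and 83.7%). In EC4, a further endothelial label with a median of 1045.5 UMIs, the shares were 48.2% thinned and 68.6% unthinned. How Tg UMIs came to cells of these labels was not tested, and no source is assigned to them here.

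Other cell types left less. The endothelial list summed to 446 UMIs (0.447 per cell in Eryth1, 0.166 in Eryth2), led by Fabp4 (157 UMIs) and Ly6c1 (69), with no member at 0 and 73.1% of the UMIs in low-globin or many-gene cells. The C cell and parathyroid list had 457 UMIs, with Pth (202) and Calca (196) foremost. With all samples summed, Pth was lower per cell in Eryth1 than in Eryth2 (0.203 and 0.430, from 202 and 470 UMIs), while Calca was higher (0.197 and 0.0806). For the whole list, Eryth1 was higher per cell in 4 of 9 samples. Single samples ranged widely, from 0.179 to 3.83 UMIs per cell of this list in Eryth2 and from 0.0943 to 0.835 in Eryth1. Skeletal muscle genes had 180 UMIs, led by Acta1 (49) and Tnnt3 (41). Fibroblast genes had 137, led by Gsn (71) and Mgp (25). Macrophage genes had 77, mostly Cd74 (59) and Lyz2, and Csf1r, Cd68 and Adgre1 were at 0. Lymphocyte genes had 43, led by Trbc2 (29) and Cd3d, and 83.7% of these were in low-globin or many-gene cells. Schwann cell genes had 27, led by Mal, and mural cell genes 24 (Des, Myh11). All 8 neutrophil genes were at 0, and platelet genes had 3 UMIs, from Itga2b and Pf4. Whether these UMIs came from free RNA or from droplets with a second cell was not tested.

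Across the treatment groups, the share of Eryth1 among all cells was 13.3%, 13.1% and 4.66% in RW 1, 2 and 3, 8.75%, 5.87% and 6.97% in aJ1aJ2 1, 3 and 4, and 12.3%, 13.7% and 13.7% in aN1aN2 1, 2 and 3. RW 3, of series A, was the lowest of all samples, and both blockades overlapped the control range. The means were 10.3% ± 4.92 (SD, n = 3) in RW, 7.20% ± 1.45 in aJ1aJ2 and 13.2% ± 0.783 in aN1aN2, with an exact two-sided permutation p of 0.4 for aJ1aJ2 and 0.5 for aN1aN2 against RW. Within series, aJ1aJ2 and RW stood in opposite order: in A the single samples were 8.75% and 4.66%, and in B the difference of aJ1aJ2 from RW was -6.76 percentage points (exact permutation p of 0.333, the smallest that 2 against 2 samples allow). The pooled test ignores this. Without RW 3 the aN1aN2 difference shrank from 2.88 to 0.0447 percentage points, and the aJ1aJ2 difference went from -3.14 to -5.98. Among erythroid cells alone, Eryth1 made up 50.6% ± 4.22 in RW, 49.3% ± 1.03 in aJ1aJ2 and 42.5% ± 3.25 in aN1aN2 (exact permutation p of 0.7 and 0.2). With 3 samples against 3, 0.1 is the smallest p such a test can give. In all, 20 such tests were made on 10 measures, 5 had groups that did not overlap, and every p adjusted over the 20 (Benjamini-Hochberg) was 0.4 or more. A share of cells cannot tell more red cells from fewer other cells.

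All 3 aN1aN2 samples had shallower Eryth1 cells than any RW sample. Median UMIs per Eryth1 cell averaged 1372 ± 51.4 in aN1aN2 and 2010 ± 194 in RW (SD, n = 3), with no overlap (exact permutation p of 0.1, adjusted 0.4). In aJ1aJ2 they averaged 1796 ± 129 and overlapped the control (exact permutation p of 0.3). Median non-globin UMIs were 57.2 ± 5.01 in aN1aN2 and 109.8 ± 17.7 in RW, and mitochondrial UMIs per cell 26.0 ± 11.8 and 44.9 ± 6.48, again with no overlap (exact permutation p of 0.1 for each, adjusted 0.4). As CPM without TMM scaling, the mitochondrial protein genes did overlap, at 10078 to 22310 in aN1aN2 and 14020 to 20823 in RW. Eryth2 of the same samples had lower medians too, at 6181 against 9913 UMIs. The globin share of Eryth1 UMIs was 94.3% ± 1.74 in aN1aN2, 94.2% ± 1.09 in RW and 91.5% ± 2.82 in aJ1aJ2. All 3 aN1aN2 samples were of series C, so number series and blockade cannot be told apart in these values.

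**Figure D4:**
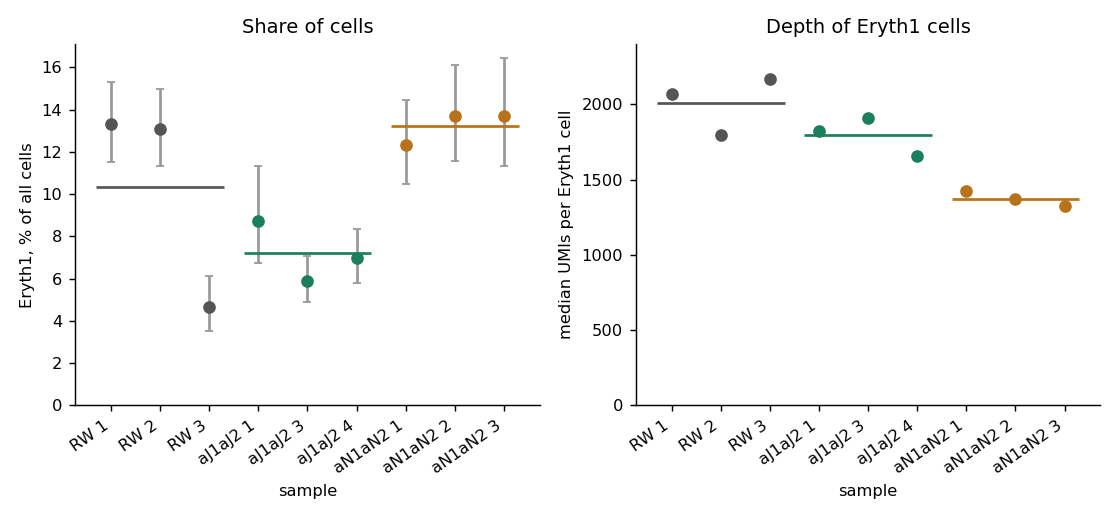
Left, Eryth1 as a percentage of all cells with 95% Wilson intervals, and right, median UMIs per Eryth1 cell, in each sample (x axis), coloured by group (grey RW, green aJ1aJ2, orange aN1aN2) with the group mean as a line. RW 3 has the lowest share, 4.66%, and the aN1aN2 samples have the lowest medians, 1322.5 to 1425 UMIs.

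Hba-a1 took 58.5%, 58.8% and 58.9% of alpha-globin UMIs in Eryth1 of RW 1, 2 and 3, 60.1%, 59.8% and 60.1% in aJ1aJ2 1, 3 and 4, and 59.7%, 59.7% and 59.7% in aN1aN2 1, 2 and 3. Neither blockade overlapped RW, with differences of 1.26 and 0.97 percentage points (exact permutation p of 0.1 each, adjusted 0.4), while the Wilson half-width of a single sample reached 0.455 points. Within series B the aJ1aJ2 difference was 1.30 points. Eryth2 of the same samples also did not overlap, at 57.2% in RW, 58.6% in aJ1aJ2 and 59.0% in aN1aN2. The Hbb-bt share of Eryth1 did not separate the groups (3.47% ± 0.584 in RW, 3.60% ± 0.577 in aJ1aJ2, 3.75% ± 0.674 in aN1aN2, exact permutation p of 0.7 each), whereas in Eryth2 the 3 aN1aN2 samples lay below all RW samples (means of 12.5% and 15.5%). The difference between the labels in this response was not tested.

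Few genes could be tested within Eryth1. Of 9182 genes with a UMI, 143 passed the filter on low counts, among them 4 globins, 5 genes of heme and iron, 7 of reticulocyte maturation and 11 of the mitochondrial genome. In aJ1aJ2 against RW no gene was called (0 of 143, 0%) by edgeR's quasi-likelihood test with a Benjamini-Hochberg adjusted p under 0.05, 7 had an unadjusted p under 0.05, and DESeq2 also called 0, with 4 unadjusted. CPM of the groups did not overlap for 12 genes (8.39%). All 11 mitochondrial genes had a positive log2 difference (median 0.55, against 0.01 over the 143 genes), and none passed. Mitochondrial UMIs per Eryth1 cell were 43.2, 60.0 and 90.7 in aJ1aJ2 1, 3 and 4. The difference of their mean from RW, 19.7 with all samples, ranged from 6.69 to 30.4 with 1 sample left out. Without RW 2, 1 gene was called lower, Fabp4.

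In aN1aN2 against RW, 11 genes were called (7.69% of 143), 4 higher (2.8%) and 7 lower (4.9%), and none of the 4 globins, the 5 heme and iron genes or the 11 mitochondrial protein genes was among them. Of the 7 reticulocyte maturation genes 1 was called lower, a call that was lost in 11 of 15 alternatives, the 6 that leave out 1 sample included. The median log2 difference over the 143 genes was 0.09, and CPM did not overlap for 31 genes (21.7%). Ribosomal RNA led the genes that fell. The mitochondrial 16S rRNA mt-Rnr2 was at 8467, 5366 and 6498 CPM in RW 1, 2 and 3, 8572, 7885 and 10119.5 in aJ1aJ2 1, 3 and 4, and 1033, 1728 and 1189.5 in aN1aN2 1, 2 and 3. The aN1aN2 samples were the lowest of all, with a log2 difference from RW of -2.36 ± 0.33 (SE, edgeR adjusted p = 0.00028). The 12S rRNA mt-Rnr1 fell by 2.50 on the log2 scale, from 1254 ± 345 to 222 ± 85.4 CPM (SD, n = 3, edgeR adjusted p = 0.00053).

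AY036118, which overlaps nuclear ribosomal RNA sequence, had 7 UMIs in aN1aN2 and 425 in RW. Its levels were 547, 417 and 77.5 CPM in RW and 16.3, 4.63 and 7.93 in aN1aN2, a log2 difference of -5.04 ± 0.73 (edgeR adjusted p = 0.00028). In aJ1aJ2 1, 3 and 4 they were 148, 371 and 388 CPM, so the series A sample lay below those of series B in RW and in aJ1aJ2. Gm42418 (-1.50), Lars2 (-1.76) and Mir6236 (-2.36), annotated over sequence of the same kind, fell as well, each with an edgeR adjusted p of 0.021. These calls were less stable: Gm42418 lost its call in 7, Lars2 in 8 and Mir6236 in 7 of 15 alternatives, with the direction kept. Without RW 1 Gm42418 (-1.21) and Lars2 (-1.41) were not called, and without RW 3 Mir6236 (-1.48) was not. Without aN1aN2 2 none of the 3 was called, without aN1aN2 1 neither Gm42418 nor Mir6236 was, and without aN1aN2 3 Lars2 was not. Mir6236 also differed by series, at 765 and 455 CPM in series A (RW 3, aJ1aJ2 1) and between 115 and 223 in series B.

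**Figure D5:**
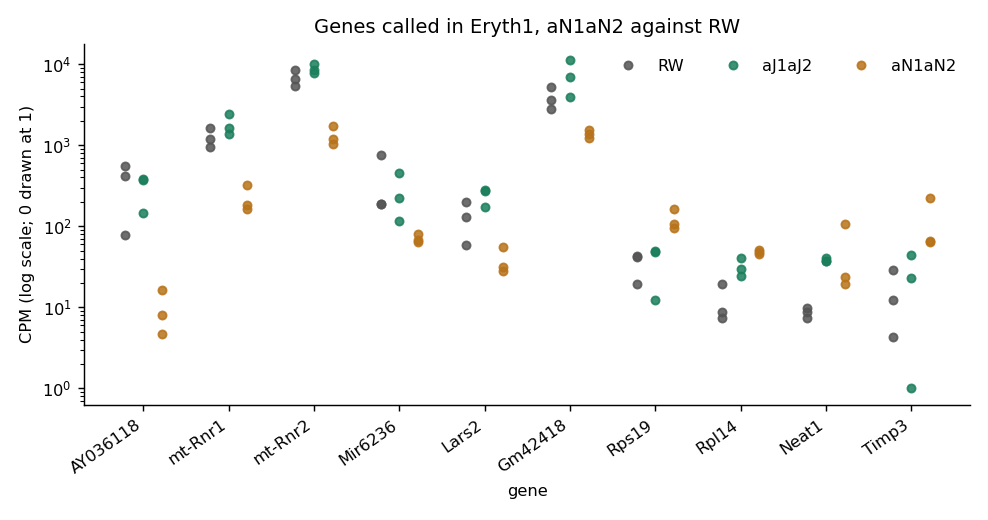
CPM (y axis, log scale, 0 drawn at 1) of 10 of the 11 genes called in aN1aN2 against RW in Eryth1 (x axis), 1 point per sample for RW (grey), aJ1aJ2 (green) and aN1aN2 (orange). For mt-Rnr2, mt-Rnr1 and AY036118 the aN1aN2 points lie below all others, and Timp3 is highest in aN1aN2 2 at 222 CPM.

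The 4 called genes that rose had few UMIs. Timp3, a metalloproteinase inhibitor of the extracellular matrix, had 20, 48 and 8 UMIs in aN1aN2 1, 2 and 3 and 5, 2 and 3 in RW 1, 2 and 3 (log2 difference 3.38 ± 0.73, edgeR adjusted p = 0.011). Rps19 and Rpl14, proteins of the small and the large ribosomal subunit, and Neat1, a nuclear RNA, rose by 1.69, 2.27 and 2.55 (edgeR adjusted p of 0.021, 0.021 and 0.041). The call of Rpl14 was lost in 9 of 12 alternatives, each of the 6 that leave out 1 sample included, that of Rps19 in 8 of 14 (without RW 1, RW 3 or aN1aN2 1 among them) and that of Neat1 in 6 of 9 (without RW 1, RW 2, RW 3 or aN1aN2 2 among them). Of their UMIs, 46.5% (Rps19) to 61.3% (Timp3) were in the low-globin and many-gene cells. Without those cells Timp3, Neat1 and Rpl14 had too few counts to be tested, and Rps19 had a log2 difference of 1.23 (edgeR adjusted p = 0.095). Without those cells 9 genes were called, 1 higher and 8 lower, 6 of them among the 11. Without aN1aN2 2, 5 genes were called, 4 of them among the 11, and neither Timp3 nor Neat1 was one of these. Their log2 differences were then 2.50 (from 3.38) and 1.28 (from 2.55).

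The same genes moved in other cells of the same samples. All 8 that could be tested in Eryth2 had the same direction there and 6 were called (edgeR, 8.6% of 279 genes called), and all 11 had the same direction in EC1 with 9 called (17.8% of 9369 genes called). For mt-Rnr2 the log2 difference was -2.36 in Eryth1, -1.90 in Eryth2 and -1.07 in EC1. For AY036118 it was -5.04, -4.44 and -3.58. Against RW, aJ1aJ2 had 0.358% of genes called in Eryth2 and 1.43% in EC1. These comparisons share their samples, and the differences between the labels were not tested.

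Against aJ1aJ2 instead of RW, aN1aN2 had 8 called genes in Eryth1 (5.59%), 1 higher (0.699%) and 7 lower (4.9%). Lower were mt-Rnr1 (-3.02), mt-Rnr2 (-2.75), AY036118 (-4.83), Gm42418 (-2.40), Lars2 (-2.61) and the mitochondrial protein genes mt-Nd2 (-1.48 ± 0.38) and mt-Atp8 (-1.69 ± 0.47, edgeR adjusted p of 0.035 and 0.047). Rps19 was higher (1.55 ± 0.43, edgeR adjusted p = 0.047). The calls of mt-Nd2 (lost in 7 of 13 alternatives), mt-Atp8 (9 of 13) and Rps19 (7 of 12) were not stable, and Lars2 lost its call in 1 of 13 (equal cells per sample, -1.95, edgeR adjusted p = 0.070). Leaving out aJ1aJ2 1, aJ1aJ2 4 or aN1aN2 1 ended all 3 calls, aJ1aJ2 3 ended that of Rps19, and aN1aN2 3 ended those of mt-Nd2 and mt-Atp8. The mt-Atp8 difference ranged from -2.74 without aN1aN2 2 to -1.40 without aN1aN2 1. With the globins left out of the counts, 6 genes were called, 0 higher and 6 lower, and 5 of them were among the 8. CPM did not overlap for 27 genes (18.9%). All 8 called genes had the same direction in Eryth2, with 7 called (9.32% of 279 genes called), and in EC1, with 8 called (13.5% of 9369). This comparison shares its aN1aN2 samples with the one against RW.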

How the data were processed

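The authors deposited a table of raw UMI counts per gene and cell and an annotation of the same cells. Cell Ranger and GRCm38 are named in the submitters' processing notes, with no version. In 2619 annotation lines an unquoted comma was rejoined, and no per-sample column lacked a sample (0). Of 52636 gene identifiers 52403 matched a symbol. Aldoa stood under 2 identifiers and was left out of its list. Counts were summed per sample over Eryth1 cells (49 to 172 cells, 104572 to 444288 UMIs) and tested with edgeR 4.0.16 (filterByExpr, TMM, quasi-likelihood, 3 group means over 9 samples). DESeq2 1.42.0 and R 4.3.3 were used for an alternative, and Python 3.11.15 with scipy 1.17.1 for exact permutation tests. CPM in group comparisons are TMM-scaled. Genes were named by fixed rules: all globins, the leading members of each list, the 20 most abundant non-globin genes, the 10 highest and lowest label ratios, and called genes whose groups did not overlap. Members and lists were chosen with earlier results of these data known. The lists of ribosomal, mitochondrial ribosomal and nuclear RNA were added after seeing the data. The tests were tried on simulated data with 1 spread for all genes. Of 35 genes changed in aJ1aJ2 against RW, 0 were called at a 2-fold change and 32 at a 4-fold change. Pools of mice are the replicates. Replicate pairs differed beyond counting noise (chi-square per degree of freedom 6.40 to 25.3). Promoters are RefSeq's, and transcripts are GENCODE's vM21. A few genes that the rules select are not reported here, although counts over genes include them.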

Additional observations from a re-analysis of the deposited data

How the results depend on the processing

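Eryth1 sums hold few non-globin UMIs, so modest changes, not only those of rare genes, could be missed at this depth. The count of 0 called genes in aJ1aJ2 against RW held under every alternative but 1: leaving out 1 sample at a time gave 0 to 1. In aN1aN2 against RW, 11 genes were called. With no filter on low counts 7 were called, 6 of them among the 11. Cells of at least 1000 UMIs gave 4 (119 genes tested), all among the 11. Equal cells per sample gave 4 (81 genes tested), 3 of them among the 11. Leaving out 1 sample gave 5 to 12 (fewest without aN1aN2 2, and 6 without RW 1 or aN1aN2 1). Against aJ1aJ2, 8 became 5 with cells of at least 1000 UMIs and 5 to 12 with 1 sample left out (fewest without aN1aN2 1). The calls of mt-Rnr1, mt-Rnr2 and AY036118 held in all 15 alternatives against RW.

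The replicate number as a block, possible for RW 1 and 2 with aN1aN2 1 and 2, gave 7 called genes, and the same 4 samples without the block gave 5. These samples share only a number, and their deviations correlated at r = -0.26 across genes.

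Of the measures, these turned direction: the aJ1aJ2 difference in the Eryth1 share of erythroid cells (-3.71 to 0.258 percentage points with 1 sample left out), the aN1aN2 difference in globin share (-0.914 to 0.697 points, and -0.0549 with cells of at least 1000 UMIs) and in thyrocyte share (-0.0013 to 0.0502 points), and the Hbb-bt share (-0.166 to 0.452 points for aJ1aJ2, -0.0208 to 0.646 for aN1aN2). Without the low-globin and many-gene cells, an alternative added after seeing the data, the aJ1aJ2 difference was 75.5 in median UMIs and -0.0234 points in thyrocyte share, and the aN1aN2 difference -0.0478 points in Hbb-bt share. The cause was not tested.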
